A study of Mus musculus with 6 samples.

Results

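miR-103 and miR-107 form a small miRNA family that was followed through 6 small RNA libraries of cultured mouse bone marrow monocytes. Its members are the hairpins Mir103-1, Mir103-2 and Mir107, 3 of the 1174 miRNA hairpins in the GENCODE M21 annotation, and their reads were found by matching each deposited sequence to the hairpins. Together they held 8900 to 51790 reads per library, out of 1498849 to 10927393 reads that matched any hairpin. All cells came from wild-type C57BL/6 mice, described in the methods as male and 7 to 10 weeks old. The 3 control cultures received PBS and the 3 LPS cultures received 5 pg/ml LPS, an endotoxin of Gram-negative bacteria, for 4 h. The study sequenced miRNAs to ask which of them such a very low dose of LPS changes. The sources do not say whether replicates came from separate mice, so every p-value here measures the spread between cultures, which may be technical.

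A miRNA is cut from a hairpin that yields a 5p and a 3p arm, and the arm that stays in the silencing complex recognises mRNAs mainly through its seed, bases 2 to 8. The 3 hairpins lie in introns of the Pank genes, which encode pantothenate kinases, the enzymes that start the synthesis of coenzyme A. The family is known as a regulator of insulin sensitivity and of Dicer, the enzyme that makes most miRNAs. Mir103-1 lies at chr11:35782396-35782481 (GRCm38, plus strand) in intron 5 of a 7-exon Pank3 transcript. Mir103-2 lies at chr2:131288052-131288137 (plus strand) in intron 5 of a 7-exon Pank2 transcript. Mir107 lies at chr19:34820687-34820773 (minus strand) in intron 5 of a 7-exon Pank1 transcript. None overlapped an exon of the host transcripts that span it.

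The mature sequences, from RefSeq on GRCm38, are shown because single bases decide which paralog a read can be assigned to. Capitals mark the seed. miR-16-5p is shown for comparison.
miR-103-3p: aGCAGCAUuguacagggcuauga
miR-107-3p: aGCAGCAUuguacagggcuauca
miR-103-1-5p: gGCUUCUUuacagugcugccuug
miR-103-2-5p: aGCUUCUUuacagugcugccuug
miR-107-5p: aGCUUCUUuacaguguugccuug
miR-16-5p: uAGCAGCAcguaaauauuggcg
The 3p arms of Mir103-1 and Mir103-2 are identical over these 23 bases, and miR-107-3p differs from them by G22C alone, counted from 1 at the 5′ end. A 3p read therefore names its paralog only when it reaches base 22. Of the 5p arms, Mir103-1 and Mir103-2 differ by G1A, and Mir103-2 and Mir107 by C16U. The seed of miR-16-5p is the same run of 7 bases that opens miR-103-3p, shifted by 1 base.

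The control libraries held 2415199 to 3880822 reads and the LPS libraries 2201520 to 17691405, of which 61.6% to 71.0% matched a hairpin. LPS replicate 2 stood apart. It was the deepest library, and 18.6% of its distinct sequences were read once, against 67.1% to 74.6% in the others. The cell label was checked with 18 marker arms. The 5 arms listed as myeloid summed to 161293 to 203248 rpm (reads per 1000000 hairpin reads of the library) in control samples and 159752 to 215937 in LPS samples. Most of this was miR-21a-5p, at 122793 to 164339 rpm, so the sum mainly follows 1 arm. How far that arm is particular to myeloid cells was not tested. miR-223-3p was at 5607 to 6089 rpm, miR-142-3p at 3741 to 7757 and miR-142-5p at 18107 to 27085. The 13 arms of other cell types summed to 848 to 1084 rpm and 721 to 1059 rpm, mostly miR-486-5p, and 3 of them (Mir145a-5p, Mir124a-3p and Mir1a-3p) had 0 reads. In LPS replicate 2 the myeloid sum included 55427 rpm for miR-146a-5p (Mir146), against 2822 to 4515 in the other samples. Markers of other cells went both ways in that library. Higher were miR-200c-3p, an epithelial marker, at 29.6 rpm against 0.947 to 4.08 and miR-150-5p, a lymphocyte marker, at 49.2 rpm against 14.9 to 23.2. Lower were miR-486-5p, an erythroid marker, at 609 rpm against 782 to 1030 and miR-9-5p, a neural marker, at 0.366 against 2.11 to 3.34. The other epithelial marker, miR-141-3p, was at 20.6 rpm against 15.3 to 37.9. The sum of the 13 arms was lowest there, at 721 rpm. In bulk libraries, fewer cells of a type and less RNA per cell cannot be told apart.

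The 3p arm carried nearly all of the family. All 3p reads together, paralogs not separated, stood at 4929, 5370 and 5805 rpm in control replicates 1, 2 and 3, and at 5036, 4737 and 5937 in LPS replicates 1, 2 and 3. The LPS values lay on both sides of the control values, and replicate 3 was the highest in each group. By its mean of 5302 the family ranked 26 among 972 arms with reads, between miR-223-3p, a myeloid miRNA, at 5782 and miR-186-5p at 5260. Its rank ran from 23 to 33 over the samples. The group means of the family total were 5368 ± 438 (SD, n = 3) in control and 5236 ± 625 (SD, n = 3) in LPS samples.

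LPS did not detectably change the 3p arm. The family total gave a log2 fold change of LPS over control of -0.06 with a standard error of 0.12. Its adjusted p was 0.995 (edgeR quasi-likelihood fit, Benjamini-Hochberg over 318 arms). Its 95% interval ran from -0.35 to 0.23, so a fold between 0.783 and 1.17 was compatible with the spread between samples. Across the 318 arms, 0 were higher (0%) and 0 were lower (0%) at an adjusted p under 0.05. At an unadjusted p under 0.05, edgeR gave 6 higher (1.89%) and 1 lower (0.314%), DESeq2 gave 4 and 0, and limma-voom gave 4 and 1. The family was in none of the edgeR counts, and 183 arms had a smaller p. Without LPS replicate 2, the library that stood apart, its log2 fold change was -0.02.

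**Figure D1:**
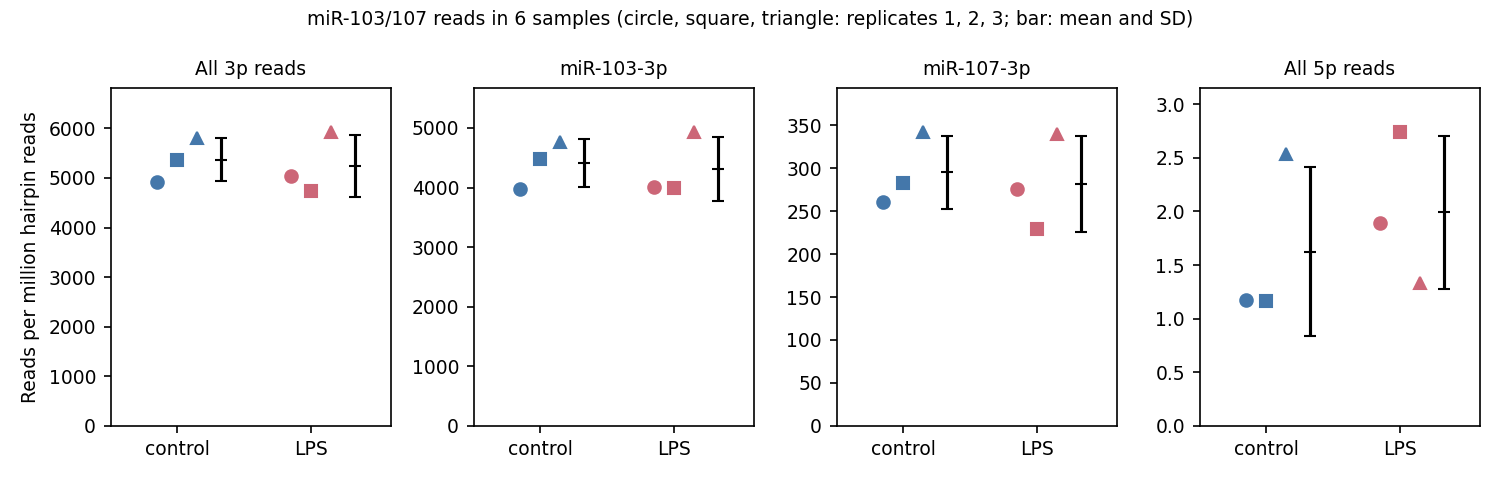
Reads per 1000000 hairpin reads (rpm) in each sample (y axis, each panel with its own scale from 0) for all 3p reads, for reads assigned to miR-103-3p or miR-107-3p by base 22, and for all 5p reads, with the mean and SD of each group beside the points. Control and LPS points overlap in every panel, and the 5p panel spans 1.17 to 2.75 where the panel of all 3p reads spans 4737 to 5937.

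Most 3p reads could be assigned by base 22, and most of those were miR-103. miR-103-3p, from Mir103-1 or Mir103-2, was at 3979, 4473 and 4771 rpm in control replicates 1 to 3 and at 4016, 3992 and 4939 in LPS replicates 1 to 3. miR-107-3p was at 261, 282 and 343 in control and at 276, 229 and 340 in LPS samples, the lowest value being that of LPS replicate 2. Thus 13.9 to 17.4 miR-103 reads were found for each miR-107 read. Reads that stopped before base 22, or carried A or T there, could not be assigned and stood at 516 to 744.

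No difference in the paralog mix was detected between the groups. miR-107 made up 6.16% of assigned 3p reads in control replicate 1 (95% Wilson interval 5.72% to 6.63%), 5.94% in replicate 2 (5.45% to 6.47%) and 6.70% in replicate 3 (6.27% to 7.16%). In LPS replicates 1, 2 and 3 its share was 6.43% (6.03% to 6.86%), 5.42% (5.22% to 5.64%) and 6.45% (5.92% to 7.01%). LPS replicate 2 had the lowest share of the 6 samples, and the other 2 LPS samples lay within the control range. These intervals cover counting error only. The group means, 6.27% ± 0.394 (SD, n = 3) and 6.10% ± 0.586 (SD, n = 3), gave p = 0.8 in an exact two-sided permutation test, where 3 samples against 3 cannot give less than 0.1. Without LPS replicate 2 the difference of LPS minus control turned from -0.166 to 0.172 percentage points. In edgeR's test the log2 fold change was -0.06 for miR-103-3p (standard error 0.12, 95% interval -0.35 to 0.24) and -0.09 for miR-107-3p (standard error 0.18, 95% interval -0.51 to 0.33), both with an adjusted p of 0.9996 over 320 arms. Without LPS replicate 2 the value for miR-107-3p was 0.0093.

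The assignment rests on 1 base near the read end, where bases that are not in the hairpin also occur. Among 3p reads from the main start that reached base 22, G stood there in 89.2% to 92.1% and C in 5.35% to 6.55%. A and T, which none of the 3 hairpins encodes at that base, stood there in 1.35% to 2.27% and 1.00% to 2.32%. How many C reads were miR-103 molecules with an added or misread base was not tested. When base 23 also had to match, the miR-107 share averaged 1.22% in control and 1.26% in LPS samples. That rule also drops reads that stop at base 22, and it does so unequally. Among reads from the main start, 57.9% to 64.8% of miR-103 reads but 10.9% to 12.7% of miR-107 reads reached base 23 (below). The lower share therefore neither checks nor corrects the assignment.

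The reads themselves show how the paralogs differed at the 3′ end. They are printed with T as in the files, with capitals from base 22 on. They are the 5 most abundant 3p reads and the 4 most abundant reads of miR-107.
miR-103, 23 bases: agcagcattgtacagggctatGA
miR-103, 22 bases and an added T: agcagcattgtacagggctatGT
miR-103, 22 bases: agcagcattgtacagggctatG
paralog not assigned, 21 bases: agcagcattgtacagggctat
miR-103, 23 bases and an added T: agcagcattgtacagggctatGAT
miR-107, 22 bases: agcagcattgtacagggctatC
miR-107, 22 bases and an added T: agcagcattgtacagggctatCT
miR-107, 23 bases: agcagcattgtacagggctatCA
miR-107, 24 bases: agcagcattgtacagggctatCAA
The first of these, the mature sequence in RefSeq, made up 42.6% of 3p reads on average over the 6 samples. The same sequence with T in place of the last base followed at 15.7%, then the 22-base form at 10.9%, the 21-base form at 7.52% and the 24-base form with an added T at 3.77%. The RefSeq sequence of miR-107-3p was only the third of the miR-107 reads, at 0.293% of 3p reads, behind the 22-base form at 2.91% and its T-extended form at 1.83%.

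miR-103 reads mostly ran to base 23, while miR-107 reads mostly stopped at base 22. Among reads from the main start, 57.9% to 64.8% of miR-103 reads reached base 23 or beyond, against 10.9% to 12.7% of miR-107 reads. The difference was 49.8 percentage points ± 3.22 (SD, n = 6), with miR-103 higher in 6 of 6 samples (exact sign-flip permutation test, p = 0.031, the smallest that 6 samples can give). That test takes the 6 libraries as independent. With samples of equal replicate number flipped together, 3 sets remain, the exact permutation p of every paralog comparison here was 0.25, the smallest that 3 sets can give, and no call was left. Ending exactly at base 22 without an added base was the reverse, at 11.7% to 17.1% for miR-103 and 50.3% to 57.6% for miR-107, a difference of -40.2 percentage points ± 3.78 (SD, n = 6) with the same exact permutation p of 0.031. miR-107 shares rest on 484 to 2502 reads per sample, and their 95% Wilson intervals reach at most 4.42 percentage points to either side for these forms. Since C at base 22 defines miR-107, an added C on a 21-base molecule would be counted among its 22-base reads, and in both paralogs an added A on 22 bases reads as base 23. These comparisons between the paralogs were chosen after the reads were seen.

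Within each paralog no difference in 3′ ends was detected between control and LPS. The share of miR-103 reads reaching base 23 averaged 61.8% ± 3.06 (SD, n = 3) in control and 61.5% ± 3.43 (SD, n = 3) in LPS samples (exact permutation test, p = 0.9). For miR-107 it averaged 11.5% ± 0.667 (SD, n = 3) and 12.1% ± 0.564 (SD, n = 3) (exact permutation test, p = 0.4). The difference between paralogs was thus present in the libraries of both groups.

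**Figure D2:**
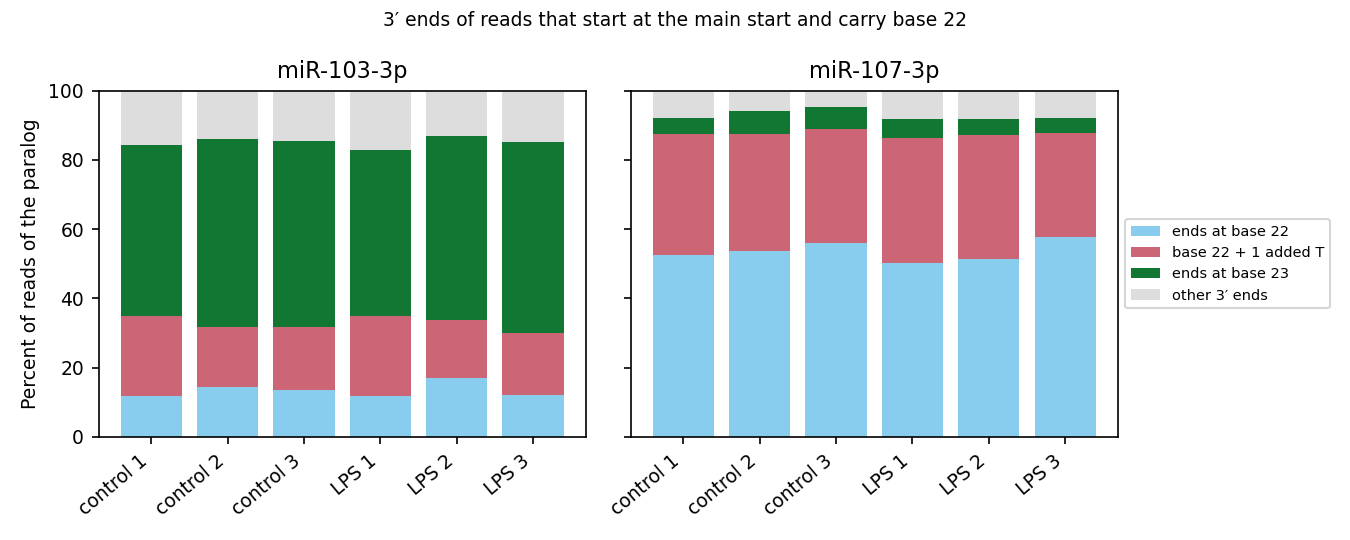
Percent of miR-103 reads (left) and miR-107 reads (right) in each sample (x axis) with each 3′ end, among reads that start at the main start and carry base 22. Reads ending at base 23 make up 48.0% to 55.2% of miR-103 and 4.31% to 6.61% of miR-107, in control and LPS samples alike.

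A single added T, which would be a U if it was present in the RNA, was the main unencoded end of both paralogs. The source of the added T in these reads was not tested, and a remnant of the adaptor would be counted in the same way. Of miR-103 reads whose encoded part ended at base 22, with or without an added T, 66.6%, 54.8% and 57.6% carried it in control replicates 1 to 3 and 66.4%, 49.3% and 59.3% in LPS replicates 1 to 3. Replicate 1 was highest in both groups. For miR-107 the same share was 40.1%, 38.5% and 37.1% in control and 41.6%, 40.9% and 34.4% in LPS samples. It was lower than for miR-103 in 6 of 6 samples, by 20.2 percentage points ± 6.89 (SD, n = 6; exact sign-flip permutation test, p = 0.031, or 0.25 by replicate set). Over all reads of each paralog the order was the opposite. Reads of 22 bases with an added T made up 16.6% to 23.2% of miR-103 and 30.2% to 35.9% of miR-107, a difference of -14.5 percentage points ± 2.73 (SD, n = 6). Reads with any added base made up 27.2% to 37.8% of miR-103 and 32.7% to 38.8% of miR-107, a difference of -4.65 percentage points ± 4.10 (SD, n = 6). miR-107 was higher in 6 of 6 samples for both. The 6 end forms compared between the paralogs, 3 higher in miR-103 and 3 higher in miR-107, were overlapping parts of the same reads. All gave an exact sign-flip permutation p of 0.031, the smallest that 6 samples can give, and 0.25 by replicate set. The Benjamini-Hochberg adjusted value was also 0.031, because that adjustment leaves equal p-values unchanged.

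The number of T-extended reads per unextended read varied with the base at which the encoded part ended. For miR-103 it was 0.973 to 1.99 at the 22-base end and 0.0725 to 0.109 at the 23-base end. At the 21-base end, where the paralog is unknown, it was 0.126 to 0.225. Over all samples the base after a miR-103 read of 22 bases was T in 17078 reads, C in 440 and G in 99, while A is the encoded base and cannot be called added.

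The family was tailed more often than most other arms. Unmatched 3′ bases (1 to 3 of them) were found on 35.8%, 28.6% and 30.1% of 3p reads in control replicates 1 to 3 and on 36.7%, 27.4% and 29.9% in LPS replicates 1 to 3. Replicate 1 was again highest in both groups, and the group means of 31.5% ± 3.80 (SD, n = 3) and 31.3% ± 4.86 (SD, n = 3) gave p = 0.9 in an exact permutation test. The median over 70 other arms with at least 1000 reads in every sample was 12.6% to 15.2%. The family exceeded it in 6 of 6 samples, by 17.8 percentage points on average (exact sign-flip permutation test, p = 0.031, or 0.25 by replicate set), and 15 of the 70 arms were higher than the family. For the single added T alone, the family was at 20.4% to 27.1% against a median of 3.45% to 4.32%, and 6 of the 70 arms were higher. These included miR-322-5p, at 25.2% to 38.7%, and Mir125b-2-3p, at 23.6% to 31.9%. Both were among the 5 arms whose pattern over the samples, not whose abundance, was most like that of the family (below). The others of those arms, miR-93-5p, let-7i-5p and Mir92-1-3p, carried the single T less often than the family. Mir92-1-3p had unmatched 3′ bases of any kind on 71.4% to 80.0% of its reads. The median for the single added T was also highest in replicate 1 of each group, at 4.32% and 4.30%.

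**Figure D3:**
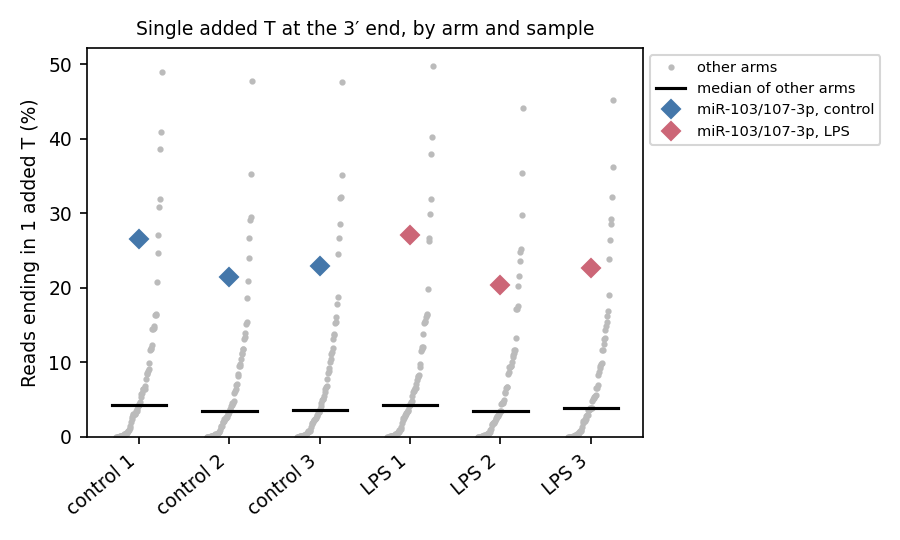
Percent of reads that end in 1 added T (y axis) in each sample (x axis), for miR-103/miR-107-3p (diamonds) and 70 other arms with at least 1000 reads in every sample (grey points), whose median is the black line. The diamonds lie at 20.4% to 27.1% and the lines at 3.45% to 4.32%, with 6 other arms higher than the family on average.

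The 5′ end, which sets the seed, was nearly uniform. Between 98.96% and 99.2% of 3p reads began at the RefSeq start and so carried the seed GCAGCAU. The most frequent other start lay 2 bases inside, at 0.722% to 0.995% of reads. A start 1 base earlier would give the seed AGCAGCA of miR-16-5p, and it was found in 3, 0 and 3 reads of the control and 4, 6 and 2 reads of the LPS samples, at most 0.0251% of 3p reads. The share of shifted starts averaged 0.897% ± 0.122 (SD, n = 3) in control and 0.922% ± 0.108 (SD, n = 3) in LPS samples (exact permutation test, p = 0.7). The median over the 70 other arms was 0.793% to 0.879%, and the family was above it in 3 of 6 samples (exact sign-flip permutation test, p = 0.25). Read lengths centred on 23 nt, the length of 60.3% to 63.4% of 3p reads, and the mean length was 22.7 to 22.8 nt in every sample.

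The 5p arm was close to absent. It had 3, 2 and 6 reads in control replicates 1 to 3 and 6, 30 and 2 reads in LPS replicates 1 to 3, which is 1.17 to 2.75 rpm. The 3p arm held 1725 to 4602 reads for each 5p read. As a percentage of family reads the 5p arm averaged 0.0297% ± 0.0121 (SD, n = 3) in control and 0.0393% ± 0.0178 (SD, n = 3) in LPS samples (exact permutation test, p = 0.6). It fell below the count filter and was not tested among all arms. Without that filter its log2 fold change was 0.39, with an edgeR adjusted p of 0.982.

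All 49 of the 5p reads could be assigned to 1 hairpin, and they are shown because the 3p arm cannot separate Mir103-1 from Mir103-2.
Mir103-2, most abundant 5p read: agcttctttacagtgctgccttgt
Mir107, most abundant 5p read: agcttctttacagtgttgccttg
Mir103-2 had 0, 1 and 2 reads in control replicates 1 to 3 and 3, 22 and 0 in LPS replicates 1 to 3. Mir107 had 3, 1 and 4 in control and 3, 8 and 2 in LPS samples. Mir103-1 had 0 of the 49, which allows a share of up to 6.12% by counting error alone. Of the 49 reads, 30 came from the deep library LPS replicate 2, and the 19 reads of the other samples allow up to 15.8%. The 5p arms thus gave reads for Mir103-2 and Mir107 only, while miR-107 made up 5.42% to 6.70% of assigned 3p reads. Long 3p reads did not settle the source of miR-103. The loci differ from base 25 on, where Mir103-2 continues with A and may be mimicked by an added A. Mir103-2 matched best for 454 reads and Mir103-1 for 82, but only 1 read, from Mir103-2, ran without an added base to base 26.

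The miR-15/miR-107 group is the wider set of miRNAs that share AGCAGC near the 5′ end, and it was measured with a list of 11 other hairpin names. Of these, Mir497b lacks that run in its mature sequence, and it gave no feature with reads. The 5p arms of the list gave 7 features with reads, of which 6 were tested. None of the 6 passed the adjusted threshold (0 higher, 0 lower). Of them 4 had a positive and 2 a negative log2 fold change, with a median of 0.18. Over all 318 arms 162 were positive, and the median was 0.0026. Of the 4 positive arms, miR-15a-5p, miR-16-5p and miR-497a-5p (Mir497) were highest in LPS replicate 2. There miR-15a-5p was at 1960 rpm against 1220 to 1525 in the other samples, and miR-497a-5p at 26.4 against 16.1 to 20.7. miR-16-5p, which is known to restrain the cell cycle, was at 25132, 29376 and 34159 rpm in control replicates 1 to 3 and 25290, 42796 and 34920 in LPS replicates 1 to 3. The highest level was that of LPS replicate 2. The edgeR log2 fold change of miR-16-5p was 0.19 with a standard error of 0.20, at an adjusted p of 0.995.

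miR-195a-5p, of the same seed, was at 10.9, 9.34 and 10.6 rpm in control and 17.4, 16.5 and 12.7 in LPS samples. Its groups did not overlap, yet its log2 fold change of 0.58 (standard error 0.24, unadjusted p = 0.0453) came with an edgeR adjusted p of 0.995, and 1.89% of all arms were higher at that unadjusted threshold. Groups that did not overlap were found for 6 of the 318 arms with LPS higher (1.89%) and for 4 with LPS lower (1.26%). miR-322-5p was at 1235 ± 100.5 (SD, n = 3) and 1193 ± 87.3 (SD, n = 3), miR-15a-5p at 1366 ± 130.1 and 1568 ± 372, and miR-15b-5p at 629 ± 30.4 and 599.8 ± 42.0, in control and LPS samples. miR-497a-5p (Mir497) was at 18.8 ± 2.39 and 21.7 ± 4.32. miR-503-5p, which fell below the count filter, had 8, 4 and 8 reads in control samples and 12, 1112 and 5 in LPS replicates 1 to 3. Its reads stood out in LPS replicate 2 alone, at 102 rpm against 2.33 to 3.79 in the other samples.

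**Figure D4:**
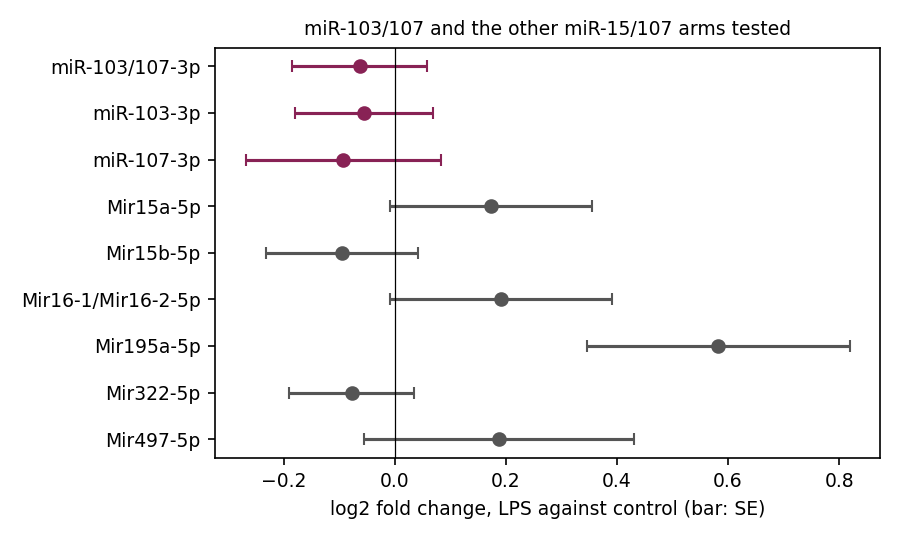
Log2 fold change of LPS against control samples (x axis, bars are standard errors, n = 3 in each group) for miR-103/miR-107-3p, its 2 paralogs and the 6 tested 5p arms of the miR-15/miR-107 list. The family points lie at -0.06, -0.06 and -0.09, and miR-195a-5p is farthest from 0 at 0.58.

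The arms whose levels followed the family total most closely over the 6 samples were miR-93-5p, miR-322-5p, let-7i-5p, Mir125b-2-3p and Mir92-1-3p. Their levels, each centred on its own mean, differed from those of the family by a root mean square of 0.0426 to 0.0760 on the log2 scale, against a median of 0.202 over 138 arms with a mean of at least 100 rpm. miR-322-5p is also a member of the miR-15/miR-107 list. miR-93-5p, of the miR-106b cluster, was at 2371, 2360 and 2709 rpm in control and 2387, 2211 and 2695 in LPS samples, again with replicate 3 high in both groups. The family itself varied by a standard deviation of 0.12 on the log2 scale, so this likeness describes small differences between 6 libraries.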

How the data were processed

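Small RNA of 3 control and 3 LPS cultures was sequenced on a HiSeq 1000 from TruSeq Small libraries. The authors trimmed adaptors with perl scripts and Btrim64 and deposited raw counts of each distinct sequence of 11 to 40 nt; their later mirAnalyzer quantification is not analysed here. The submitters' processing notes name mm9, whereas positions here are on GRCm38. Members and lists were chosen with earlier results of these data known, and the paralog end comparison after the reads were seen.

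Reads of at least 18 nt were matched to 1174 GENCODE M21 hairpins from their first base, with up to 3 unmatched 3′ bases, and went to the hairpin with the fewest unmatched bases, so a read ending in the miR-107 bases is not given to miR-103. Adaptor remnants would count as unmatched bases, and reads with an internal mismatch are lost. Arms were merged where 50% or more of the reads of each also fitted the other. Family 3p reads form 1 feature, or 3 (miR-103, miR-107, unassigned) in a second table. Levels are reads per 1000000 hairpin reads, and replicates within a group differed far beyond counting noise.

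The edgeR 4.0.16 quasi-likelihood test (R 4.3.3) was run on counts kept by filterByExpr and scaled by TMM. Arms passed at a Benjamini-Hochberg adjusted p under 0.05. Alternatives used DESeq2 1.42.0 and limma 3.58.1. Standard errors were obtained by dividing the size of the log2 fold change by the square root of F. Shares were compared by exact permutation tests in Python 3.11.15, and the code was tested on simulated data. To see whether replicate numbers pair the samples, each sample's deviations from its group over 318 arms were correlated. Equal numbers gave r of 0.595, 0.259 and 0.276, unequal ones -0.387 to 0.155, so the numbers may pair the samples. The main tests of LPS against control were run without pairing, and a replicate block was an alternative. The named genes are the members' arms, the miR-15/miR-107 list and the 5 arms most like the family; reads named are the 5 most abundant 3p reads and the top 5p read of each paralog, and the 4 miR-107 reads were added later.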

Additional observations from a re-analysis of the deposited data

How the results depend on the processing

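The log2 fold changes of the family total and of miR-103-3p kept their sign in all 8 other fits and in the 6 fits that each left out a sample. With 1 sample left out they ranged from -0.12 to -0.02 and from -0.12 to -0.02, and that of miR-107-3p from -0.20 to 0.0093, the latter without LPS replicate 2. With the replicate block the values were -0.07, -0.06 and -0.10, and no edgeR call changed. Without the count filter 972 arms were tested, of which 21 were higher and 0 lower. Of the 7 arms of the miR-15/miR-107 list with reads, 1 passed, miR-503-5p (log2 fold change 3.67, adjusted p = 6.82e-17 in edgeR's test). It had 1112 reads in LPS replicate 2 and 4 to 12 in the other samples. Counts of called arms were 0 with each sample left out.

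Differences of LPS minus control in shares were near 0 and changed sign easily. With samples paired by replicate number, the miR-107, 5p, tailed and shifted-start shares each gave p = 0.75 in an exact sign-flip permutation test. The miR-107 share difference was -0.17 percentage points, 0.0413 when bases 22 and 23 both had to match, and -0.338 to 0.172 with 1 sample left out. With 1 sample left out, the tailed share ran from -2.85 to 2.00, the shifted starts from -0.0328 to 0.0916 and the mean length from -0.0122 to 0.0175 nt, and the length difference was -0.0012 nt with exact matches only. The excess of tailing over other arms ran from 16.8 to 18.4 points, the difference between paralogs in reads reaching base 23 from 49.2 to 50.8, and that in the added T from 18.9 to 22.6. With 5 samples these tests cannot go below 0.0625, so they say nothing on stability. With samples of equal number flipped together, a replicate block chosen after seeing the data, these 3 differences of 17.8, 49.8 and 20.2 points had an exact permutation p of 0.25, the smallest 3 sets allow. Against 20 arms with at least 10000 reads the family had more shifted starts, by 0.480 points (exact sign-flip permutation test, p = 0.031, or 0.25 by replicate set). Depth limits the 5p arm, with 2 to 30 reads, and the miR-107 ends, with 484 to 2502.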
